A study of Mus musculus with 2 samples.

Results

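Otx2, Mitf, Pax6, Sox9, Rax, Lhx2, Six3, Tfec and Crx encode transcription factors that set up the eye field or the retinal pigment epithelium (RPE), and these 9 genes were picked by symbol from the 27998 genes listed in single-cell transcriptomes of mouse RPE. The cells came from 2 male C57BL/6J mice, R1 and R2, with no genetic change and no treatment, at postnatal day 36 according to the protocol and 4 to 5 weeks of age according to the sample labels. RPE sheets from the eyes of a mouse were released with trypsin from eyecups opened below the limbus, with cornea, iris, lens and retina taken away, and live cells were sorted by dyes that do not select a cell type. Every captured transcript carried a unique molecular identifier (UMI), so the values are numbers of molecules, read from the 3′ end. Since 3′ capture differs between genes, levels are compared below between cells and not between genes.

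The RPE is the pigmented layer that feeds and renews the photoreceptors, and it develops from the same optic vesicle as the neural retina. Rax, Pax6, Six3 and Lhx2 are expressed in the early eye field, where they act before the vesicle divides into retina and RPE, and Pax6 stays on in the ciliary epithelium and in retinal neurons. In the RPE, Mitf and Otx2 together switch on genes of pigment synthesis, Sox9 acts with Otx2 on visual cycle genes, Tfec is a relative of Mitf, and Crx is the Otx2 relative of photoreceptors.

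Cells fell into a large class in which Ttr, the transthyretin gene that mature RPE transcribes heavily, took at least 5% of the UMIs of a cell, and a small class in which it took under 3%. R1 held 2612 high-Ttr and 59 low-Ttr cells after quality filters, and R2 held 2828 and 19. The median depth was 8431.5 UMIs in high-Ttr and 3200 in low-Ttr cells of R1, and 7687 and 3836 UMIs in R2. Low-Ttr cells of R1 and R2 had medians of 1309 and 1374 genes, against 2116 and 1779 in high-Ttr cells. Their median mitochondrial share was higher, at 2.57% and 3.35% of UMIs against 1.30% and 1.26%. The part of this difference in the results was not tested. The libraries shared 12 cell barcodes. No kept cell lay between the limits, while 3 cells of R1 that failed the quality filters did. The highest low-Ttr cells were at 2.66% and 0.755% Ttr and the lowest high-Ttr cells at 5.18% and 5.14% in R1 and R2. Markers of mature RPE had a summed level of 396 and 445 UMIs per 10000 UMIs in high-Ttr cells against 34.9 and 24.1 in low-Ttr cells, where Best1 was at 0. Best1 had only 7 and 11 UMIs in all high-Ttr cells, so its 0 carries little information. Markers of other cells differed by list, with ciliary epithelium, fibroblast and microglial markers higher in low-Ttr cells. Pericyte markers had a lower summed level there, 1.09 and 0.549 UMIs per 10000 UMIs against 2.78 and 2.78. All 5 pericyte markers were tested and 2 were called, 1 higher and 1 lower in low-Ttr cells. Choroidal melanocyte markers summed to 0.676 and 0.329 against 0.767 and 0.673, and endothelium markers to 0.260 and 0.110 against 0.139 and 0.122. Cone markers summed to 0.156 and 0 against 0.208 and 0.216. The melanocyte, endothelium and cone lists each had at most 13 UMIs in the low-Ttr cells of a mouse. Sox10 gave 1462 of the 1826 and 1543 of the 1814 melanocyte marker UMIs of high-Ttr cells. In low-Ttr cells it gave 2 of 13 and 0 of 3. The melanocyte sums of high-Ttr cells thus mostly held Sox10 and say little of the other markers. The 8 ciliary epithelium markers summed to 16.8 and 35.1 per 10000 UMIs against 3.72 and 3.83, with Zic2 and Aqp1 at 0 in low-Ttr cells of R1 and Msx1 at 0 in those of R2. Fibroblast markers summed to 30.9 and 22.0 against 0.0210 and 0.0887 with all 6 detected, and microglial markers to 8.99 and 11.6 against 0.154 and 0.0508 with P2ry12 at 0. Of the 7 Muller glia markers 4 were tested, with Vim and Slc1a3 higher and Clu lower in low-Ttr cells. Their summed level was 68.7 and 93.7 per 10000 UMIs against 97.1 and 95.3, with Kcnj10 at 0 in both classes, and at least 3 of them were found in 30.5% and 63.2% of low-Ttr cells against 28.1% and 29.7% of high-Ttr cells. All 8 rod markers were at 0 in low-Ttr cells of both mice. In high-Ttr cells they summed to only 0.0857 and 0.0189 per 10000 UMIs. That is below the 0.156 and 0.329 that 3 UMIs would give in low-Ttr cells, so the zeros carry little information. At least 3 fibroblast or microglial markers were carried by 5 low-Ttr cells of R1 and 3 of R2, whose median depths were 2851 and 2968 UMIs and which held a single UMI of the 9 genes, of Otx2 in R1. In 7 low-Ttr cells of R1 and 9 of R2 at least 3 ciliary epithelium markers were found, a grouping chosen after the data were seen, and these cells held 15.4% and 64.1% of the low-Ttr UMIs. Their median depths were 4120 and 4310 UMIs, against 3180 and 3402 in low-Ttr cells with under 3 of these markers and no fibroblast or microglial call. The marker count was not matched for depth. The part of the cells with ciliary epithelium markers in the results was not tested beyond leaving them out, with values given below.

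Low-Ttr cells had more Pax6 and Rax transcripts and fewer Otx2 and Sox9 transcripts than high-Ttr cells, in both mice. UMIs were summed per mouse and class, and edgeR's quasi-likelihood test compared the 4 sums with a term for the mouse, with p-values adjusted by the Benjamini-Hochberg method across every tested gene. Of the 9 genes, 7 passed the filter on low counts, and 4 of these were called at an adjusted p under 0.05, 2 higher and 2 lower in low-Ttr cells. Over all 11482 genes tested 10.8% were called, 4.17% higher and 6.65% lower. Earlier results of these data had shown Pax6 and Rax to be higher in a small group of cells with less Ttr. Their calls, and the count of 4, are therefore no independent evidence. The split of calls moved with the scaling, from 38.6% higher with TMM factors to 65.9% with library totals alone, and the median gene moved from -0.37 to 0.21 on the log2 scale. Tfec and Crx did not pass the filter and count as neither changed nor unchanged. The classes were defined by Ttr, which was taken out of the counts, and a lower number of transcripts per cell and a different make-up of the class cannot be told apart in such sums.

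**Figure D1:**
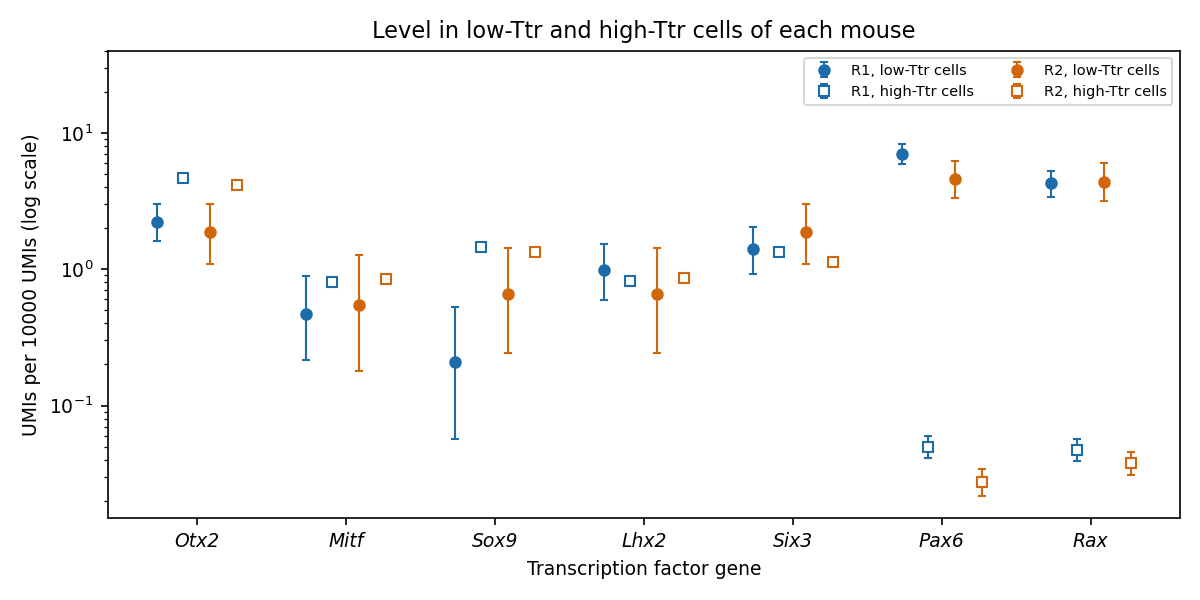
Level of 7 genes in UMIs per 10000 UMIs (Ttr in the total) on a log axis, in low-Ttr cells (filled circles) and high-Ttr cells (open squares) of R1 and R2, with exact 95% Poisson intervals that cover counting error only. Pax6 lies at 7.02 and 4.61 in low-Ttr cells and at 0.050 and 0.0275 in high-Ttr cells, while the low-Ttr intervals of Mitf, Lhx2 and Six3 hold the high-Ttr level in both mice.

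All intervals on levels, shares and ratios below cover counting error only, and the test rests on 2 animals. Otx2, which directs RPE identity together with Mitf (ENSMUSG00000021848, GRCm38 chr14:48657677-48673819, minus strand, protein-coding), was the member seen in most high-Ttr cells. Its level in low-Ttr cells was 2.23 UMIs per 10000 in R1 (95% Poisson interval 1.62 to 3.01) and 1.87 in R2 (1.09 to 2.99), from 43 and 17 UMIs. High-Ttr cells had 4.63 in R1 and 4.16 in R2. Both low-Ttr values lay below both high-Ttr values. The difference was -1.85 on the log2 scale (SE 0.35, edgeR adjusted p = 4.85e-06), which is 3.61-fold lower after TMM scaling, while the ratio of the levels per UMI themselves was 2.07-fold and 2.23-fold lower. Without the low-Ttr cells that carry ciliary epithelium markers, the difference was -1.80 and no longer passed the threshold (adjusted p = 0.0555), with fewer genes called overall (572 against 1242).

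Mitf (ENSMUSG00000035158, chr6:97807052-98021349, plus strand) encodes the master regulator of pigment cell genes. Low-Ttr cells had 0.468 UMIs per 10000 in R1 (0.214 to 0.888) and 0.549 in R2 (0.178 to 1.28), from 9 and 5 UMIs, and high-Ttr cells had 0.803 and 0.843. Both low-Ttr values were under both high-Ttr values, but the counting interval of R1 and that of R2 hold the level of the high-Ttr cells, with Ttr in the total. The difference of -1.47 (SE 0.54, 95% interval -2.52 to -0.41) did not pass after adjustment (edgeR adjusted p = 0.0571). It passed when the mouse was not a block (adjusted p = 0.00373), and under 2 other settings out of 14 in all.

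Sox9 (ENSMUSG00000000567, chr11:112782224-112787760, plus strand), a partner of Otx2 on visual cycle genes, was lower in low-Ttr cells. R1 had 4 UMIs there, or 0.208 per 10000 (0.0566 to 0.532), and R2 had 6, or 0.659 (0.242 to 1.43), against 1.45 and 1.33 in high-Ttr cells. The low-Ttr values lay below the high-Ttr values, with R1 farther away than R2, whose interval holds the level of its high-Ttr cells with Ttr in the total. The fitted difference was -2.67 (SE 0.53, edgeR adjusted p = 1.17e-05). All 6 Sox9 UMIs of R2 sat in 3 cells that also carried at least 3 ciliary epithelium markers, while none of the 4 UMIs of R1 did. With those marked cells left out, the difference was -3.70 (edgeR adjusted p = 0.00255). Leaving them out took away every Sox9 UMI of the low-Ttr cells of R2 and none of R1. A wider difference was thus largely set in advance, and the value is no check.

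Pax6 (ENSMUSG00000027168, chr2:105668900-105697364, plus strand), the paired-box factor of the early eye, was far more abundant in low-Ttr cells. They had 7.02 UMIs per 10000 in R1 (5.88 to 8.31) and 4.61 in R2 (3.32 to 6.23), against 0.050 and 0.0275 in high-Ttr cells. The classes were far apart in each mouse, with 135 UMIs in 59 low-Ttr cells against 119 in 2612 high-Ttr cells of R1. The difference was 6.49 on the log2 scale (SE 0.42, edgeR adjusted p = 4.26e-50). The level ratio was 140-fold in R1 (109 to 181) and 168-fold in R2 (112 to 248). Markers of amacrine cells, retinal neurons that use Pax6, had a summed level of 0.416 and 0.988 in low-Ttr cells against 1.89 and 1.57. In low-Ttr cells only Slc6a9 and Syt1 were detected in R1 and only Slc6a9 in R2, so these sums rest on very few genes. Whether amacrine cells were present was not tested. Tfap2a, Tfap2b, Gad1 and Snap25 were at 0 in low-Ttr cells of both mice, but Tfap2b and Gad1 were also at 0 in high-Ttr cells of both mice, Tfap2a in those of R1 and Snap25 in those of R2. Pax6 stayed called at 6.21 without the cells carrying ciliary epithelium markers (adjusted p = 1.39e-14).

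Rax (ENSMUSG00000024518, chromosome 18, minus strand), the retina and anterior neural fold homeobox gene, followed Pax6. Low-Ttr cells had 4.26 UMIs per 10000 in R1 (3.39 to 5.29) and 4.39 in R2 (3.14 to 5.98), and high-Ttr cells had 0.0474 and 0.0379. The low-Ttr values of the mice were close to each other, and both stood well above the high-Ttr values. The difference was 5.89 (SE 0.44, edgeR adjusted p = 8.98e-38), or 5.65 without the cells carrying ciliary epithelium markers.

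Lhx2 (ENSMUSG00000000247, chr2:38339281-38369733, plus strand), a LIM homeobox factor that the optic vesicle needs, and Six3 (ENSMUSG00000038805, chr17:85613608-85629302, plus strand), a homeobox factor of the forebrain and eye field, did not pass the test. Lhx2 had 0.988 UMIs per 10000 in low-Ttr cells of R1 and 0.659 in R2, against 0.813 and 0.859 in high-Ttr cells. Six3 had 1.40 and 1.87 in low-Ttr cells, against 1.33 and 1.13. The classes overlapped for Lhx2, whose low-Ttr cells were above the high-Ttr cells in R1 and below them in R2. For Six3 both low-Ttr values were the higher with Ttr in the total. Without Ttr the low-Ttr and high-Ttr totals of R1 were 190979 and 21104086 UMIs. On these totals the 27 Six3 UMIs of low-Ttr cells gave the lower level beside 3177 in high-Ttr cells. The fit gave -0.73 for Lhx2 (95% interval -1.67 to 0.21, edgeR adjusted p = 0.454) and -0.39 for Six3 (-1.18 to 0.40, adjusted p = 0.700). The sign of Six3 turned to 0.20 with library totals alone, so no direction is given for it, and the intervals of both genes reach beyond a 2-fold lower level.

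**Figure D2:**
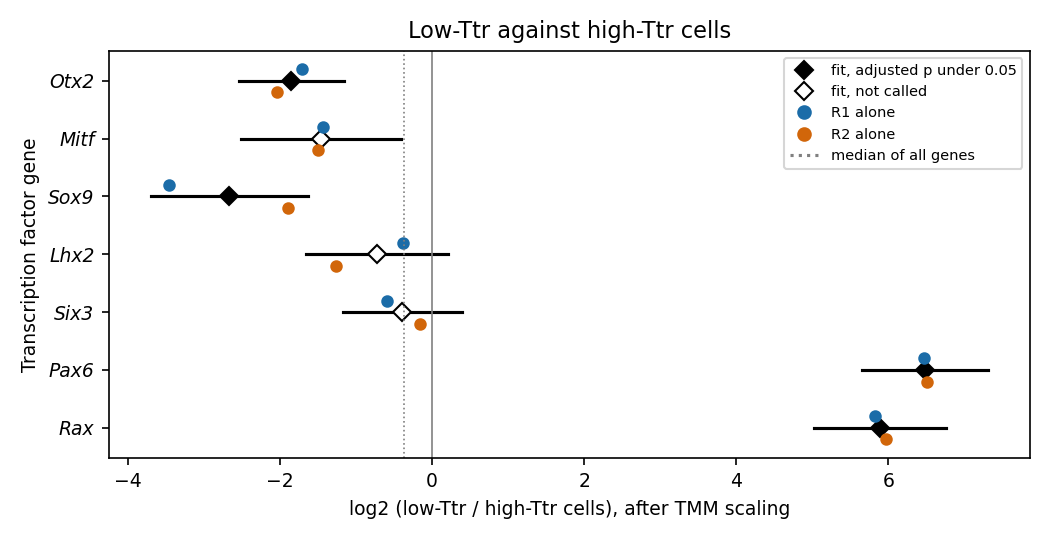
Difference between low-Ttr and high-Ttr cells on the log2 scale for 7 genes, with diamonds for the edgeR fit (filled where the adjusted p was under 0.05), lines for the 95% interval, dots for each mouse alone and a dotted line at the median of all genes. Pax6 (6.49) and Rax (5.89) lie far to the right, Sox9 (-2.67) and Otx2 (-1.85) to the left, and the mice lie close together for Pax6, Rax and Mitf.

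Tfec (ENSMUSG00000029553, chr6:16833373-16898441, minus strand) and Crx (ENSMUSG00000041578, chr7:15865947-15879968, minus strand) were hardly detected. Tfec had 1 UMI in the high-Ttr cells of each mouse, and Crx had 5 UMIs in 2 cells of R1 and 3 UMIs in 1 cell of R2. Low-Ttr cells had 0 UMIs of either gene, which at 3 UMIs allows a level of up to 0.156 per 10000 in R1 and 0.329 in R2. The high-Ttr levels were at most 0.00210 per 10000, below what the low-Ttr sums could show, and a difference was not detectable at this depth.

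Because low-Ttr cells were shallower, every cell was also drawn down to 2000 UMIs, which kept all cells of both classes. Otx2 was then found in 35.6% of low-Ttr cells of R1 and 21.1% of R2, against 56.6% and 50.8% of high-Ttr cells. Before thinning the shares were 44.1% and 47.4% against 89.1% and 81.9%. The gap was narrower at equal depth and lay in the same direction in both mice, with low-Ttr intervals (23.6 to 49.1 and 6.05 to 45.6) below the high-Ttr shares. In R2 the interval depends on the draw, since the expected share of low-Ttr cells over draws was 28.5%. At 3000 UMIs the R2 interval (16.3 to 67.7, 15 cells) held the high-Ttr share of 64.1%. With Ttr removed before thinning it was 9.15 to 51.2, below 54.2%. At 2000 UMIs Pax6 was found in 66.1% (exact Clopper-Pearson interval 52.6 to 77.9) and 42.1% (20.3 to 66.5) of low-Ttr cells, against 0.651% and 0.636% of high-Ttr cells. Rax was found in 39.0% and 42.1%, against 0.804% and 0.636%. For both genes the low-Ttr interval lay above the high-Ttr share in each mouse, and 0 of the 8 cells with fibroblast or microglial markers had a Pax6 or Rax UMI, which at so few cells sets no useful background. Sox9 was found in 1.69% and 10.5% of low-Ttr cells and in 22.4% and 19.6% of high-Ttr cells. The interval for R1 (0.0429 to 9.09) lay below the high-Ttr share, and that for R2 (1.30 to 33.1) held it. Mitf was found in 6.78% and 10.5% against 13.7% and 12.9%, Lhx2 in 13.6% and 10.5% against 12.4% and 14%, and Six3 in 23.7% and 36.8% against 21.9% and 17.6%. These 3 genes had low-Ttr intervals that held the high-Ttr share in each mouse. The gap of Six3 in R2, 19.3 points in this random draw, was 10.6 points as the expected share over draws, 2.80 at 3000 UMIs and 1.60 with Ttr removed before thinning. Only 15 of the 19 low-Ttr cells of R2 reached 3000 UMIs.

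Droplets also take up free RNA, whose make-up was not measured here. The numbers that follow assume that it holds each gene and Ttr in the ratio of the high-Ttr cells. Low-Ttr cells held 1421 Ttr UMIs in R1 and 364 in R2. At the ratio of Otx2 to Ttr in high-Ttr cells, these would come with 5.78 and 1.19 Otx2 UMIs, and 43 and 17 were counted. For Mitf the numbers were 1.00 and 0.240 against 9 and 5 counted, for Lhx2 1.01 and 0.245 against 19 and 6, and for Six3 1.67 and 0.322 against 27 and 17. The counted numbers of these 4 genes had exact Poisson intervals above that number in both mice. For Sox9 it was 1.81 against 4 in R1, whose interval (1.09 to 10.2) holds it, and 0.379 against 6 in R2. Pax6 and Rax would come with less than 1 UMI in each mouse.

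Within the high-Ttr cells, levels are given along the range of Ttr as a description. Otx2 ran from 4.49 UMIs per 10000 in the 137 cells of R1 with 5 to 8% Ttr to 4.56 in the 348 cells with at least 14%, and from 4.70 to 3.97 in R2. Six3 ran from 1.47 to 1.33 in R1 and from 1.55 to 1.09 in R2, with 31 cells in the lowest bin of R2. Pax6 stood at 0.132 per 10000 in R1 cells with 5 to 8% Ttr and between 0.0404 and 0.0516 above, and it was at 0 in that bin of R2. A single R1 cell with 8.98% Ttr, 7190 UMIs and 7 Otx2 UMIs held 21 Pax6 UMIs, 17.6% of all Pax6 UMIs of the high-Ttr cells of R1. Pax6 was far higher below the gap in Ttr, where the 51 R1 cells under 1% Ttr had 7.13 Pax6 UMIs per 10000 and the 8 cells with 1 to 3% had 6.24.

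**Figure D3:**
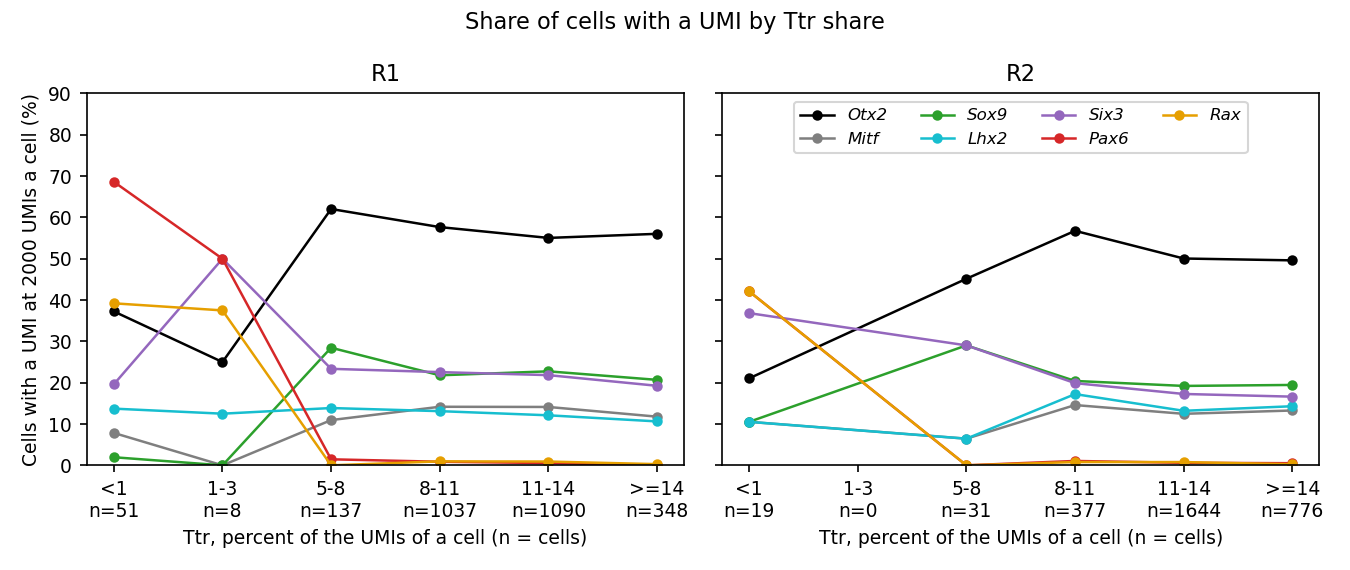
Share of cells with a UMI of each gene at 2000 UMIs a cell, by the share of Ttr among the UMIs of a cell, in R1 and R2, with the number of cells under each bin and no kept cells between 3 and 5%. Pax6 and Rax drop from 68.6% and 39.2% under 1% Ttr in R1 to 1.46% and 0% at 5 to 8% Ttr, while Otx2 rises from 37.3% to 62.0%.

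In single low-Ttr cells Pax6 was seen in 45 of 59 cells of R1 and 11 of 19 cells of R2, at up to 14 and 10 UMIs in a cell. Both Pax6 and Rax were seen in 21 cells of R1, Pax6 alone in 24, Rax alone in 5 and neither in 9. In R2 these numbers were 7, 4, 2 and 6. Of the cells with neither, 5 of R1 and 3 of R2 were those with fibroblast or microglial markers. At 2000 UMIs, the number of low-Ttr cells with both genes was 16 in R1 and 3 in R2, against 15.2 and 3.37 from the product of the shares, ratios of 1.05 (Poisson interval 0.602 to 1.71) and 0.891 (0.184 to 2.60). Pax6 and Rax were thus seen together about as often as their shares alone would give. The intervals treat the joint count by itself and are wider than the given shares allow. Pax6 or Rax and also Otx2, Mitf or Sox9 were seen in 27 of the 50 R1 cells with Pax6 or Rax (54.0%) and in 9 of the 13 such cells of R2 (69.2%). At 2000 UMIs the numbers were 19 of 46 (41.3%) and 5 of 13 (38.5%). Over all low-Ttr cells the share with Otx2, Mitf or Sox9 was 52.5% and 57.9% over all UMIs and 40.7% and 36.8% at 2000 UMIs. Cells with Pax6 or Rax made up 84.7% and 68.4% of the low-Ttr cells over all UMIs. A likeness to the whole was therefore largely set in advance and is no comparison. Pax6 and Otx2 were seen together in 20 and 6 low-Ttr cells over all UMIs, against 19.8 and 5.21 from the product of the shares. At 2000 UMIs they were seen together in 13 and 0, against 13.9 and 1.68.

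**Figure D4:**
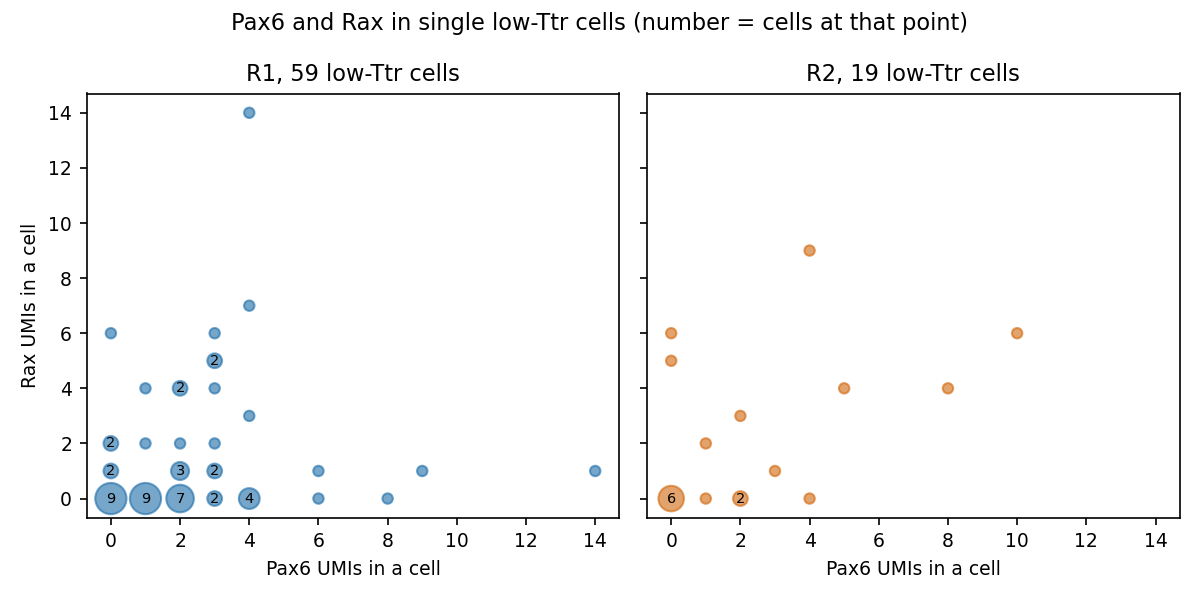
UMIs of Pax6 and Rax in each low-Ttr cell of R1 (59 cells) and R2 (19 cells), with the number of cells at a point where it is above 1 and a larger dot for more cells. Cells with both genes, with Pax6 alone and with Rax alone appear in both mice, and 9 and 6 cells sit at 0 for both.

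In high-Ttr cells Otx2, Mitf, Sox9, Lhx2 and Six3 form 10 pairs. Counted over all UMIs, the number of cells with both genes was above the product of the shares in 10 of 10 pairs in R1 and in R2, with median ratios of 1.11 and 1.23 and an interval above 1 in 6 and 10 pairs. At 2000 UMIs 8 pairs in R1 and 5 in R2 were above 1, the medians were 1.04 and 1.00, and the interval of all 10 pairs held 1 in both mice. With Ttr removed before thinning, 9 and 7 pairs were above 1, with medians of 1.06 and 1.01. Mitf and Lhx2, the pair with the highest ratio in R1 over all UMIs, were seen together in 434 cells of R1 against 371 from the product, and in 42 against 44.3 at 2000 UMIs. The ratios were thus nearer to 1 at equal depth. The Poisson intervals treat the joint count by itself and leave out that the shares of both genes are given, which makes them too wide. They therefore cannot settle which pairs differed from 1 beyond counting error, over all UMIs or at 2000 UMIs.

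**Figure D5:**
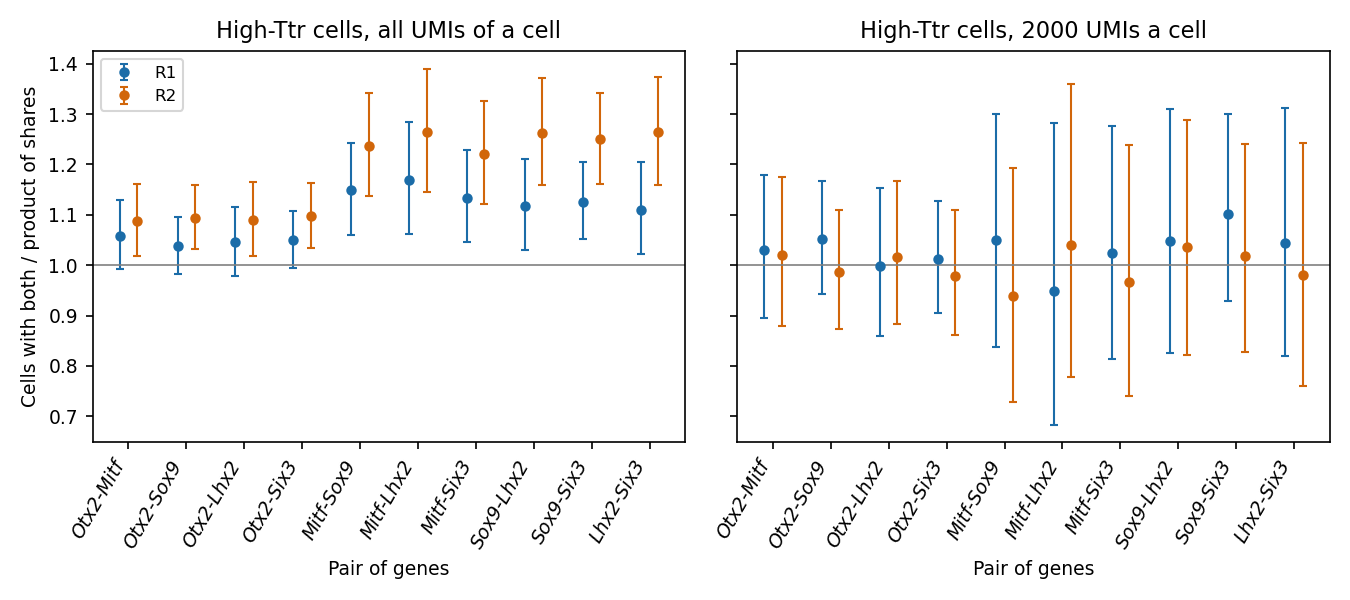
Number of high-Ttr cells with both genes of a pair divided by the number that the product of the shares gives, for 10 pairs in R1 and R2, over all UMIs (left) and at 2000 UMIs a cell (right), with exact Poisson intervals of the joint count, which are too wide for given shares. The median falls from 1.11 and 1.23 on the left to 1.04 and 1.00 on the right.

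Genes that Mitf and Otx2 are known to regulate moved in both directions. Of 10 pigment genes all passed the filter, 6 were called higher in low-Ttr cells (Pmel, Mlana, Trpm1, Gpnmb, Dct and Tyrp1) and 1 lower (Oca2), and the list had a median log2 difference of 2.73 beside -0.37 for all genes. Mlana, a melanosome protein gene, had 52.7 and 34.0 UMIs per 10000 in low-Ttr cells of R1 and R2 against 1.93 and 1.36 (log2 difference 3.94, SE 0.35, edgeR adjusted p = 2.74e-27). Dct, an enzyme of melanin synthesis, had 123 and 77.4 against 8.51 and 6.18. Tyr, the tyrosinase gene, named after its value was seen, had a log2 difference of 0.28 and did not pass (edgeR adjusted p = 0.755). Of the 8 RPE function genes, 7 that handle retinoids passed the filter and all 7 were called lower, with a median of -4.15. Best1 did not pass it. Rpe65, the isomerase of the visual cycle, had 2.81 and 0.659 UMIs per 10000 in low-Ttr cells against 48.0 and 50.0 in high-Ttr cells (-5.54, SE 0.43, edgeR adjusted p = 1.36e-35). Rgr, an opsin of the RPE, had 15.8 and 6.69 against 201 and 237. Both lists hold genes that earlier results of these data had shown to move, and their counts are no independent evidence.

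The regions before the start sites of 5 of these genes are shown, the pigment and RPE function genes with both motifs described here in a promoter, so that they were chosen by these motifs and do not stand for their lists. They cover the 250 bases before the start at chr4:80833963-80834212 (plus strand) for Tyrp1, chr14:118052247-118052496 (minus strand) for Dct, chr7:64153585-64153834 (plus strand) for Trpm1, chr3:159598931-159599180 (plus strand) for Rpe65 and chr14:37049015-37049264 (minus strand) for Rgr, from RefSeq on GRCm38.p6 and in the direction of transcription. Capitals mark CATGTG or its other strand CACATG, an E-box of the kind that Mitf binds, and TAATCC or its other strand GGATTA, the core that Otx2 and Crx share. The Tyrp1 CATGTG match lies 46 bases before the start, the Dct CATGTG matches 232 and 150 bases before it, and the Rpe65 CATGTG match 239 bases before it. The Tyrp1 TAATCC match lies 4 bases after the start, and the Rgr CATGTG match begins 5 bases before it and crosses it. Both reach past the 250 bases shown and are not marked.
Tyrp1: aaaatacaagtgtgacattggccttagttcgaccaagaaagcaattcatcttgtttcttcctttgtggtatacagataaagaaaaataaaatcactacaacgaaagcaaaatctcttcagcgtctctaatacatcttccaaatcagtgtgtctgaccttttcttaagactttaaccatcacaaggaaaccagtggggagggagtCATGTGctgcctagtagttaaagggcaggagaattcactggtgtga
Dct: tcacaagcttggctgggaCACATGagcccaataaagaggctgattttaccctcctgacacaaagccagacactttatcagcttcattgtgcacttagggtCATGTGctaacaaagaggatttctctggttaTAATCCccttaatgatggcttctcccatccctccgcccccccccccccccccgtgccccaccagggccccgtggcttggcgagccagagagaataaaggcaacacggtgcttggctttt
Trpm1: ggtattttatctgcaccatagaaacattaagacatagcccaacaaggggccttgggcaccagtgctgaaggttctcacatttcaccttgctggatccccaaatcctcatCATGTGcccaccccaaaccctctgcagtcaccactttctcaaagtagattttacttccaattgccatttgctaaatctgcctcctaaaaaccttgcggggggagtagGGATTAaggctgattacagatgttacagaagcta
Rpe65: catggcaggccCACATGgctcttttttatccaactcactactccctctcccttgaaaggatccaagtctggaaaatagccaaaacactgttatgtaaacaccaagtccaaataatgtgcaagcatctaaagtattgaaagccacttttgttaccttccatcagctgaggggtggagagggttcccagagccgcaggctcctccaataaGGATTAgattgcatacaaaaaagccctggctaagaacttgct
Rgr: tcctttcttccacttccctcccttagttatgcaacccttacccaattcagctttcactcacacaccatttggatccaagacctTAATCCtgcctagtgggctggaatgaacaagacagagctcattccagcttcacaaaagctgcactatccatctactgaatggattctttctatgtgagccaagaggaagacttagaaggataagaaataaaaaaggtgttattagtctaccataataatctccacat

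Of all 32851 promoters of 300 bases, 14.2% held CATGTG and 7.06% held TAATCC on either strand. CATGTG was found in 7 of the 8 promoters (87.5%) of the 7 pigment genes with an entry and in 3 of the 10 promoters (30.0%) of the 7 RPE function genes with an entry. TAATCC was found in 3 of 8 and 3 of 10. Gpnmb, which was higher in low-Ttr cells, held neither, and Oca2, which was lower, held CATGTG. Of the members themselves, 7 matched with 14 promoters, of which 1, of Otx2, held CATGTG and 3, of Otx2, Mitf and Crx, held TAATCC. The entries for Rax and Sox9 were not used here. A match describes the letters only.

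Among 38 other eye transcription factors, 20 passed the filter and 7 were called, with 5 higher in low-Ttr cells, among them Six6, Nr2f1, Zic1 and Otx1, and 2 lower (Sox10 and Nr2e1), and the median log2 difference was 0.79. Six6, a close relative of Six3 in the eye field, had 9 and 16 UMIs in low-Ttr cells against 0 and 2 in high-Ttr cells (edgeR adjusted p = 1.19e-08). With the R1 high-Ttr sum set to 3 UMIs, low-Ttr cells of R1 were 371-fold higher. That value leaves out the counting error of the 9 UMIs and is no lower bound. Otx1, the paralogue of Otx2, had 13 and 13 UMIs against 35 and 20 (log2 difference 5.74, SE 1.05, edgeR adjusted p = 1.33e-06), the opposite direction to Otx2. Otx1 and Zic1 are also among the ciliary epithelium markers. All 16 Six6 UMIs of R2 and 7 of the 9 UMIs of R1 were in cells with at least 3 ciliary epithelium markers. Those cells were also deeper, and the part of depth was not tested. Sox10 and Nr2e1 had 2 and 3 UMIs in low-Ttr cells of R1, where high-Ttr cells had 1462 and 1418. Low-Ttr cells of R2 had 0 UMIs of both genes, and high-Ttr cells 1543 and 1489.

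Genes of the opposite strand that are listed in the files overlap 5 members in GENCODE M21 (GRCm38), and the use of strand in the counting is not given in the sources used here, so reads of a gene and of its partner cannot be told apart with certainty. Otx2os1, opposite to Otx2, had 9 and 1 UMIs in low-Ttr cells against 2867 and 3264 in high-Ttr cells (log2 difference -2.61, SE 0.55, edgeR adjusted p = 4.53e-05), the direction of Otx2. Pax6os1 had 4 and 5 UMIs in low-Ttr cells and 0 in high-Ttr cells of both mice. With each high-Ttr sum set to 3 UMIs, low-Ttr cells were 165-fold and 493-fold higher. These values leave out the counting error of the 4 and 5 UMIs and are no lower bounds. Raxos1 had 7 and 1 UMIs against 2 and 5. Pax6os1 and Raxos1 were named after their values were seen.

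Over 11 bins of Ttr in both mice, the 2 genes whose level ran most like each member were named by Pearson r of log2 level (with a pseudocount) with the mean of each mouse taken off, among 10692 genes, as a description of these bins, which share their libraries. Pax6 ran most like Mlana (r = 1.00) and Bambi (0.998), and Rax like Reln (0.998) and Car2 (0.998). The low-Ttr bins held 51 and 8 cells in R1 and 19 in R2, and Pax6 and Rax were low in all other bins. Their r values therefore largely restate the difference between the classes. Otx2 ran most like Slc24a1 (0.997) and Trhde (0.996), Mitf like Borcs7 (0.997) and 1110004E09Rik (0.996), and Sox9 like Man2a2 (0.986) and Slc12a4 (0.977). Six3 ran most like Zfp386 (0.987) and Foxk1 (0.965), and Lhx2 like Gm16365 (0.964) and Alg12 (0.958), the lowest values of the 7 members. These r values also rest in part on the low-Ttr bins and are the highest found among 10692 genes. In those bins (under 1% and 1 to 3% in R1, under 1% in R2) Mitf had 9, 0 and 5 UMIs. Sox9 had 1, 3 and 6 there, and Lhx2 18, 1 and 6.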

How the data were processed

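The deposited UMI counts per gene and cell were made by the authors with Cell Ranger 1.2.0 on GRCm38 after bcl2fastq 2.20.0.422, and R1 and R2 held 2844 and 2994 cells with 26034378 and 29732969 UMIs. The annotation release and the use of strand are not given in the sources used here, and sources differ on which 10x kit version was used. Cells with at least 500 genes and at most 5% mitochondrial UMIs were kept, and the 4% with the highest doublet score (share of artificial doublets among nearest neighbours, 111 and 119 cells, all high-Ttr) were left out, which left 2671 and 2847. UMIs were summed per mouse and class without Ttr and fitted with edgeR 4.0.16 in R 4.3.3 (TMM, filterByExpr, quasi-likelihood, mouse as a block, Benjamini-Hochberg threshold 0.05). Sums of 1 mouse come from the same animal, and their deviations correlated at r = 0.0416. On simulated sums of the low-Ttr against high-Ttr comparison, 27.7% of changes of 2 (11210 genes tested) and 64.1% of changes of 4 (11229 genes tested) on the log2 scale were recovered. Levels are UMIs per 10000 with Ttr in the total, intervals are exact (95%), a count of 0 was read as up to 3 UMIs, and thinning drew 2000 UMIs a cell once. All members were named, with the called genes of 3 lists that moved the same way in both mice (at most 8 a list) and the 2 genes most like each member. Members and lists were chosen with earlier results of these data known. Alternatives covered scaling, DESeq2 1.42.0, filters, the block, Ttr limits, doublets, free RNA, thinning and single mice. Python 3.11.15 with NumPy 2.4.6, SciPy 1.17.1 and scikit-learn 1.9.0 was used for the other steps. Some genes of the lists are not reported here.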

Additional observations from a re-analysis of the deposited data

Results flagged for a closer look

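Cells over the 5% mitochondrial limit were outside the comparisons, and some of the members had levels there above the floor that 3 UMIs would give. In the 5 low-Ttr cells of this kind in R1, Pax6 stood at 8.40, Otx2 at 3.88 and Rax at 3.23 UMIs per 10000, with a floor of 1.94, and Mitf, Sox9, Lhx2 and Six3 were at 0. In the 2 such cells of R2, Pax6 stood at 9.31, from 6 UMIs, with a floor of 4.65. Otx2, Sox9 and Six3 were at 0 in these R2 cells, Rax had 1 UMI, Mitf 2 and Lhx2 3, none above the floor. In the high-Ttr cells over the limit, 50 in R1 and 26 in R2, Otx2 stood at 6.70 and 5.16, Sox9 at 2.30 and 2.69, Six3 at 1.74 and 2.04, Mitf at 0.698 and 0.967 and Lhx2 at 0.349 and 0.752 UMIs per 10000, with floors of 0.209 and 0.322. Pax6 and Rax were not above the floor in these high-Ttr cells, and Tfec and Crx were at 0 in every group over the limit.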

How the results depend on the processing

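Of 210 values under other settings, 199 kept their direction and side of the threshold or stayed within the spread. For numbers of genes called, the limit was 1.5-fold. For share differences the spread was the counting interval of the 59 or 19 low-Ttr cells. It is wide, so large moves and turns of sign could still count among the 199. The 14 values with 1 mouse left out were all among the 199. They were set against the spread of the same 2 mice, which left little room for another outcome, so they are no check. The number of genes called was 2299 with no replicate block, 727 with UMIs thinned to 2000 per cell and 572 without the low-Ttr cells that carry ciliary epithelium markers, against 1242. Without those cells Otx2 was at -1.80 (edgeR adjusted p = 0.0555). Mitf passed at -1.49 with no replicate block (edgeR adjusted p = 0.00373), at -1.49 with no doublet removal (0.0481) and at -1.72 with 10% of UMIs taken off as free RNA (0.0452). The free RNA was given the make-up of the whole library. The low-Ttr sums held 1421 and 364 Ttr UMIs, fewer than 10% of such RNA would bring. That setting thus takes off more than these sums can hold. Six3 turned to 0.20 with library totals alone (0.825). The draw to 3000 UMIs per cell kept only 35 of the 59 low-Ttr cells of R1 and 15 of the 19 of R2. Changes from 2000 UMIs therefore mix depth with a different set of cells. At 3000 UMIs per cell the share in low-Ttr minus high-Ttr cells was 81.7 points for Pax6 in R1, -27.7 for Sox9 in R1 and -19.4 for Sox9 in R2. It was 65.8 for Pax6 in R2 against 41.5 at 2000 UMIs, and 2.80 for Six3 in R2 against 19.3. The sign of the share difference turned at 3000 UMIs for Mitf in R2 (-2.38 to 2.06), Lhx2 in R1 (1.16 to -1.45) and R2 (-3.44 to 1.71) and Six3 in R1 (1.87 to -1.07), all within counting error. With Ttr removed before thinning it also turned for Lhx2 (-0.544) and Six3 (-2.95) in R1. As the expected share it turned for Lhx2 in R1 (-0.967). Leaving out either mouse gave values with no test, of 6.47 to 6.51 for Pax6, 5.83 to 5.98 for Rax, -2.04 to -1.71 for Otx2, -3.47 to -1.90 for Sox9, -1.50 to -1.44 for Mitf, -1.27 to -0.38 for Lhx2 and -0.59 to -0.16 for Six3. The causes were not tested. Depth limits Tfec and Crx, with 0 UMIs in low-Ttr cells, and the 19 low-Ttr cells of R2 and 4 to 27 UMIs of Mitf, Sox9, Lhx2 and Six3 in low-Ttr sums limit the precision of these.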
